A study of Mus musculus with 32 samples.

Results

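Toll-like receptors (TLRs) report bacterial products to the transcription factor NF-kappaB through a chain of adaptors, kinases and ubiquitin ligases, and 43 genes that encode this chain and its brakes were followed among the 56953 genes of the count table. They were listed by symbol for their role in the pathway, by a rule that uses no measured value. Earlier results of these data were, however, known when they were chosen. They fall into 7 roles. These are 5 Rel family transcription factors, 5 I-kappaB family members, 4 TIR adaptors, 4 IRAK kinases, 7 TRAF, cIAP and LUBAC genes, 10 kinases with their scaffolds, and 8 ubiquitin editors and other feedback genes. All 43 passed the filter on low counts and were tested. The lowest count of a member in any library was 102, and group means ran from 5.91 to 595 CPM, the counts scaled to library depth with TMM factors.

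The study sequenced messenger RNA of mouse bone marrow-derived macrophages, cells that arise when marrow is cultured with the growth factor M-CSF, here supplied by L929 cell supernatant. Its stated interest was how glucocorticoids act on inflammation in LPS-treated macrophages, in the presence and absence of Irg1 (Acod1), the gene of the enzyme that makes the metabolite itaconate. Wild type (WT, labelled Acod1 WT) and knockout (KO) macrophages, both on the C57BL/6J background, were left untreated (control), or received the synthetic glucocorticoid dexamethasone (dex) at 100 nM, 100 ng of lipopolysaccharide (LPS, bacterial endotoxin), for which no volume is stated, or both, for 24 hours. Each of these 8 groups had 4 libraries, 32 in all. The donors were C57BL/6J mice from a breeder, 8 to 12 weeks of age, or Irg1+/+ and Irg1-/- mice from another source, and the labels do not say which of these gave the WT libraries. Nor do they say whether libraries of a group came from separate mice, and the p values therefore rest on a spread among libraries that may be technical.

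As background, LPS is recognised by TLR4 with its partners CD14 and MD-2. The TIR adaptor MyD88 carries the signal through IRAK kinases and TRAF6. Both MyD88 and the TIR adaptor TRIF lead to the kinase TAK1, which switches on the IKK complex. IKK marks I-kappaB proteins for destruction and so frees Rel family dimers to enter the nucleus. Many of the genes that NF-kappaB switches on encode its own inhibitors, among them I-kappaB alpha and the ubiquitin-editing enzyme A20, and the glucocorticoid receptor is known to restrain NF-kappaB target genes in macrophages.

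Libraries held 17559079 to 25049200 assigned read pairs. Acod1 itself stood at 6507, 6675, 6125 and 6624 CPM in the 4 WT and 4898, 4914, 4979 and 5187 CPM in the 4 KO libraries with LPS. With both agents it had 2748, 2783, 2708 and 2712 CPM in WT and 4119, 4034, 3908 and 3670 CPM in KO, and without LPS no library passed 11.5 CPM. Reads over all exons are counted, so these values do not test the knockout label. Macrophage markers (8 of 8 detected) summed to between 14900 and 30000 CPM in all libraries. The summed markers of fibroblasts, neutrophils, mast cells, T and NK cells, the erythroid line and dendritic cells stayed at or under 17.3 CPM. Those of B cells reached 107 CPM in the control libraries, with Ms4a1 and Pax5 near 0. In WT LPS libraries the B cell sum was 0.17 to 0.771 CPM. Of the B cell markers, Ighm and Cd79b passed the filter. Both were lower with LPS in WT (log2 fold change -8.77 and -3.69), and the cause was not tested. All WT libraries came from sequencing lane 3 and all KO libraries with LPS from lane 2, so KO against WT under LPS cannot be told apart from lane. The 4 KO libraries with dexamethasone plus LPS need a remark before any result that uses them. Over 1666 genes that differed at least 2-fold between KO LPS and WT dexamethasone plus LPS, with at least 5 CPM in one of these groups, the level in KO dexamethasone plus LPS lay a median of 36.9% of the way from the first to the second, with quartiles of 33.3% and 40.3%. The 4 libraries had medians of 33.7% to 41.1%, and the cause of this even spacing was not tested. Every result on this group rests on these libraries and cannot be given without them.

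LPS raised most of the machinery and its brakes at once. In WT macrophages 37 of 43 members were higher after LPS (37.4% of the 14427 genes tested were higher) and 6 were lower (38.3% of all genes), so every member passed the test. With a change of at least 2-fold there were 22 higher (15.1% of all genes) and 2 lower (17.3% of all genes). The median log2 fold change of the members was 1.19, beside -0.02 over all genes. KO macrophages gave the same counts, 37 higher (36.8% of all genes) and 6 lower (39.3%). In bulk libraries fewer cells of a kind and less RNA per cell cannot be told apart. The 8 macrophage markers did not move together: with LPS in WT 3 rose (Adgre1 by 1.89, Itgam by 1.37, Fcgr1 by 0.49, log2) and 5 fell, from -0.16 for Csf1r to -3.07 for Mertk. Their sum, in which Lyz2 weighs most (-1.34), was 14900 to 17200 CPM in WT LPS against 24000 to 26100 CPM in WT control libraries, and their part in the members' changes was not tested. The heat map of the members by library shows these shifts.

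**Figure D1:**
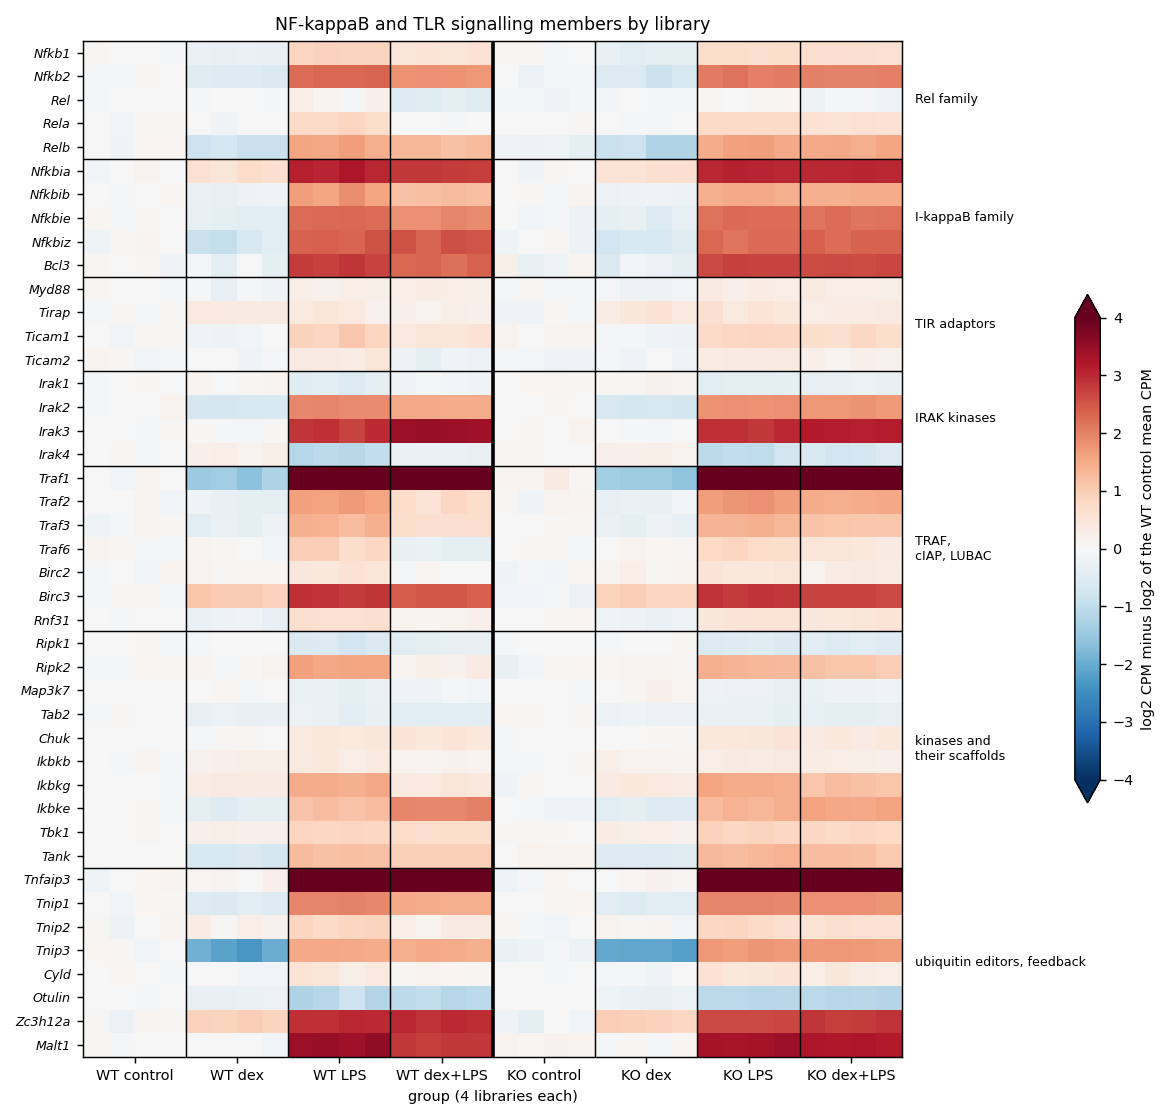
Heat map of 43 members (rows, grouped by role) in 32 libraries (columns, 4 per group). Colour is log2 CPM minus log2 of the WT control mean CPM, and values past 4 take the end colour. The LPS columns are red for most members in both genotypes, Otulin and Irak4 are blue there, and Tnip3 and Traf1 are the darkest blue with dexamethasone alone.

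Among the Rel family, the DNA-binding subunits, all 5 rose with LPS in WT macrophages. Per kilobase of exon, Rela (p65, the main activating subunit) was the most abundant of the 5 at rest, with 41.7 CPM per kb, and Relb the least, with 7.1 CPM per kb. Nfkb2, which encodes p100, the precursor of p52, had 58.9, 58.5, 62.8 and 60.7 CPM in the 4 WT control libraries and 285, 297, 294 and 305 CPM in the 4 WT LPS libraries. The 2 sets are far apart, and the change was the largest in the family (log2 fold change 2.29 ± 0.044 SE, adjusted p = 2.74e-41). Relb, the partner of p52, rose by 1.57 ± 0.06 and Nfkb1, the gene of p105 and p50, by 0.89 ± 0.032 (log2 fold change ± SE here and below, n = 4 against 4). Rela rose by 0.78 ± 0.036, from 128 ± 5.94 CPM to 220.1 ± 10.2 CPM (SD, n = 4). Rel, which encodes c-Rel, had 66.4, 68.9, 69.6 and 68.04 CPM at rest and 82.04, 73.6, 65.3 and 77.9 CPM with LPS, sets that overlap. Its change of 0.13 ± 0.046 (edgeR adjusted p = 0.00985) turned to -0.13 without scaling beyond library totals, and was 0.08 (adjusted p = 0.11) without WT LPS replicate 1. Reads of Nfkb2 are counted without strand, and 20.53% of its exon bases overlap AC114539.1 and Psd. AC114539.1, with the larger overlap, had a mean count over all libraries of 197.6 beside 2957.9 for Nfkb2. How far the overlap affects the level of Nfkb2 was not tested.

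The I-kappaB family, which holds Rel dimers in the cytoplasm or, for Bcl3 and Nfkbiz, acts on them in the nucleus, rose as a whole: 5 of 5, by 1.68 to 3.10. Nfkbia (ENSMUSG00000021025, chr12:55536195-55539432, minus strand, in the annotation of the deposited table, GENCODE vM32, as for all gene positions here), the gene of I-kappaB alpha, had 64.6, 68.1, 75.9 and 68.9 CPM in WT control and 601, 568, 648 and 562 CPM in WT LPS libraries. No control library came near an LPS library, and the gene rose 8.58-fold (log2 fold change 3.10 ± 0.047 SE, adjusted p = 9.44e-46). With 370 CPM per kb it was the most abundant of the 43 members under LPS once exon length is taken into account. Bcl3 rose by 2.77 ± 0.073, Nfkbiz (I-kappaB zeta, needed for Il6 induction in mice) by 2.40 ± 0.071, Nfkbie by 2.26 ± 0.047 and Nfkbib by 1.68 ± 0.051. Of the Nfkbib exon bases, 16.41% overlap Ccer2 and Sirt2.

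All 4 TIR adaptors rose, by 0.23 to 0.93. Ticam1, which encodes TRIF, the adaptor of the interferon arm, had 35.7, 32.9, 36.2 and 36.6 CPM at rest and 67.5, 63.7, 74.03 and 63.9 CPM with LPS. Each LPS library lay above each control library (log2 fold change 0.93 ± 0.053 SE, adjusted p = 1.5e-21). Tirap and Ticam2, the sorting adaptors that bring MyD88 and TRIF to the receptor, rose by 0.37 ± 0.063 and 0.35 ± 0.053, and neither was called without scaling. Myd88 rose by 0.23 ± 0.045 (adjusted p = 1.37e-05), and without scaling its change was -0.03. Of the exon bases of Myd88, 11.26% overlap Acaa1a, and of those of Ticam2, 14.47% overlap Tmed7.

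The 4 IRAK kinases split. Irak3 (IRAK-M), known as a brake on TLR signalling, went from 33.7 ± 1.08 to 248 ± 20.3 CPM (SD, n = 4), a 7.35-fold rise (log2 fold change 2.88 ± 0.047 SE, adjusted p = 2.28e-44), and Irak2, which sustains late signalling, rose by 1.92 ± 0.037. Irak4 (ENSMUSG00000059883, chr15:94441524-94479696, plus strand), the first kinase of the MyD88 complex, had 55.1, 56.4, 53.2 and 55.2 CPM at rest and 25.1, 26.7, 25.6 and 27.6 CPM with LPS. All LPS libraries lay at about the same level below all controls (log2 fold change -1.07 ± 0.053 SE, adjusted p = 8.27e-24). Irak1, its substrate, had 115, 115, 122 and 117 CPM at rest and 84.6, 85.1, 79.96 and 91.6 CPM with LPS, again without overlap (-0.46 ± 0.039). Of the Irak4 exon bases, 7.87% overlap Twf1, whose mean count over all libraries was 1835.9 beside 967.6 for Irak4.

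All 7 TRAF, cIAP and LUBAC genes, most of which encode ubiquitin ligases, rose with LPS. Traf1 (ENSMUSG00000026875, chr2:34831762-34851784, minus strand), an adaptor without ligase activity that binds TRAF2 and the cIAPs, had 15.7, 14.97, 17.1 and 16.2 CPM in WT control and 537, 524, 592 and 518 CPM in WT LPS libraries. This was the largest rise of the 43 members, 33.9-fold (log2 fold change 5.08 ± 0.052 SE, adjusted p = 1.03e-52). Birc3 (cIAP2) rose by 2.87 ± 0.042, while its close relative Birc2 (cIAP1) rose by 0.49 ± 0.061. Traf2 rose by 1.63 ± 0.057, Traf3 by 1.37 ± 0.049 and Traf6, the ligase that acts directly after the IRAKs, by 0.88 ± 0.052. Rnf31 (HOIP), the ligase that builds linear ubiquitin chains, rose by 0.63 ± 0.041.

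Of the 10 kinases and scaffolds, 7 rose and 3 fell. Ripk2, the kinase of the NOD receptors, had 13.5, 13.4, 14.7 and 14.3 CPM at rest and 43.2, 41.2, 41.8 and 41.7 CPM with LPS, a 3-fold rise with no overlap (log2 fold change 1.59 ± 0.066 SE, adjusted p = 7.69e-27). Ikbkg (NEMO), the regulatory subunit of IKK, rose by 1.49 ± 0.04, more than the catalytic subunits Chuk (IKK alpha, 0.42 ± 0.04) and Ikbkb (IKK beta, 0.35 ± 0.037), although these 3 changes were not tested against each other. The IKK-related kinases of the interferon arm, Ikbke and Tbk1, rose by 1.19 ± 0.041 and 0.84 ± 0.031, and their partner Tank by 1.21 ± 0.038. Ripk1, the kinase scaffold of the TNF receptor and TRIF complexes, had 129.7, 133, 136 and 126 CPM at rest and 88.8, 89.8, 76.6 and 87.7 CPM with LPS, each LPS library below each control (log2 fold change -0.62 ± 0.039 SE, adjusted p = 1.1e-19). Map3k7 (TAK1) and Tab2, its ubiquitin-binding partner, both changed by -0.30 (SE 0.04 and 0.035).

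Among the ubiquitin editors and feedback genes 7 of 8 rose. Tnfaip3 (ENSMUSG00000019850, chr10:18876658-18891405, minus strand), the gene of A20, had 15.3, 17.2, 18.5 and 18.6 CPM at rest and 353, 352, 319 and 336 CPM with LPS (log2 fold change 4.29 ± 0.049 SE, adjusted p = 1.07e-50). That is a 19.5-fold rise, second in size to Traf1. Malt1, a paracaspase that cleaves regulators such as A20, had 50.04, 46.2, 48.1 and 49.5 CPM at rest and 518, 538, 512 and 563 CPM with LPS (log2 fold change 3.46 ± 0.039 SE, adjusted p = 6.02e-51). Zc3h12a (regnase-1, which degrades cytokine messages) rose by 2.96 ± 0.055. The A20-binding proteins Tnip1, Tnip3 and Tnip2 rose by 1.95 ± 0.035, 1.52 ± 0.045 and 0.85 ± 0.061, and the deubiquitinase Cyld by 0.42 ± 0.049. Otulin (ENSMUSG00000046034, chr15:27542721-27630779, minus strand), which takes linear chains apart, was the exception, with 85.9, 86.8, 82.4 and 87.5 CPM at rest and 36.5, 38.95, 47.8 and 37.8 CPM with LPS (log2 fold change -1.09 ± 0.05 SE, adjusted p = 4.36e-25). It was the largest fall of the 43 members, with replicate 3 of the LPS group somewhat above the other LPS libraries and still far below the controls.

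**Figure D2:**
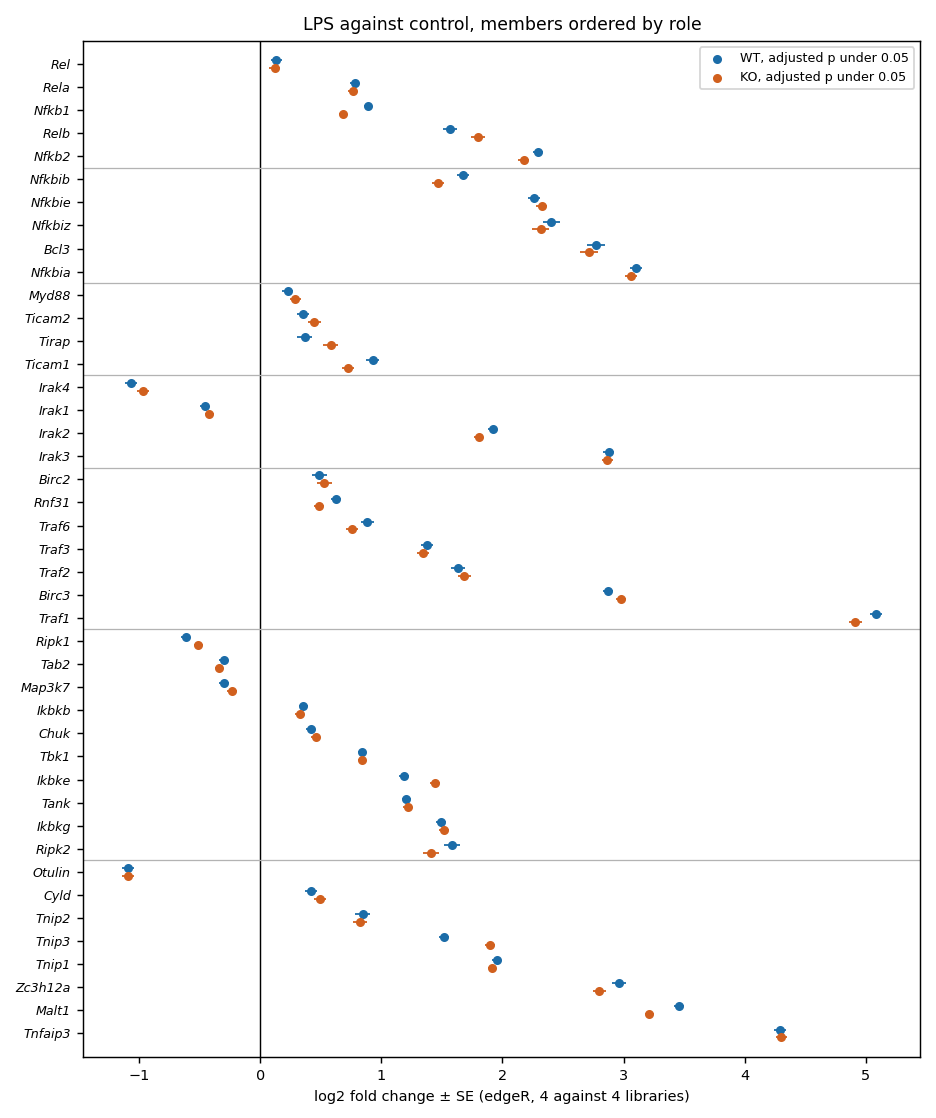
Log2 fold change of LPS against control for the 43 members (rows, by role), with bars of 1 standard error, in WT (blue) and KO (orange) macrophages, 4 against 4 libraries. Points to the right of 0 are higher with LPS. WT values run from -1.09 for Otulin to 5.08 for Traf1, and KO values from -1.09 to 4.91.

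Promoter sequence was read for the members that RefSeq lists, since so many of them rose together. The tables (build GRCm38.p6) hold the 250 bases before the start for 36 members, and 12 of these (33.3%) contain the 10-base NF-kappaB consensus on one strand or the other, beside 8.23% of 27025 genes. Over single promoters the shares are 35.3% of 51 member promoters and 7.25% of 32851. The 9-base core of the glucocorticoid response element, ACANNNTGT, which reads alike on both strands, was in 3 of 36 members (8.33%, namely Chuk, Irak1 and Tab2) and 6.76% of all genes. Members with the NF-kappaB consensus were Cyld, Irak1, Map3k7, Nfkb2, Nfkbia, Nfkbie, Rel, Tank, Tnfaip3, Tnip1, Tnip3 and Traf3. They include the falling Irak1 and Map3k7, while Traf1, Birc3, Bcl3, Zc3h12a and Irak3, each raised at least 6.82-fold in WT, have no match in this window. A match is a description of the letters and not evidence of binding.

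Shown here are 6 promoters that hold a match, those of Nfkb2 and of some of the inhibitor and feedback genes, from the RefSeq table. Each is 250 bases long, ends at the base before the start, and is written in the direction of the gene. Capitals mark bases of the NF-kappaB consensus. Nfkbia (chr12:55492648-55492897, minus strand) has 1 match that begins 29 bases before the start. Tnfaip3 (chr10:19015411-19015660, minus strand, 1 of 2 listed starts) has matches that begin 125 and 12 bases before it. Tnip1 (chr11:54962941-54963190, minus strand) has 3 overlapping matches from 58 bases on, and Nfkb2 (chr19:46304487-46304736, plus strand, 1 of 3 starts) has 2 overlapping matches from 39 bases and another from 11 bases. Nfkbie (chr17:45555450-45555699, plus strand) and Tnip3 (chr6:65590148-65590397, plus strand) have 1 match each, at 106 and 54 bases.
Nfkbia: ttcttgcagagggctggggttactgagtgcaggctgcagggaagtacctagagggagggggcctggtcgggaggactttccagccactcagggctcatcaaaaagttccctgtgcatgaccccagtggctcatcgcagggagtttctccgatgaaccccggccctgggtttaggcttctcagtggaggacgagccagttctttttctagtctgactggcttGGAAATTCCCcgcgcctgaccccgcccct
Tnfaip3: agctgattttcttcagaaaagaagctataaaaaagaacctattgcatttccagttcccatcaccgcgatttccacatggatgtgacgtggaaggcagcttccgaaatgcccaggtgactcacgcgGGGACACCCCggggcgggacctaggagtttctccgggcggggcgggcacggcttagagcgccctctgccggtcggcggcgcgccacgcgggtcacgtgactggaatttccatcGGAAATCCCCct
Tnip1: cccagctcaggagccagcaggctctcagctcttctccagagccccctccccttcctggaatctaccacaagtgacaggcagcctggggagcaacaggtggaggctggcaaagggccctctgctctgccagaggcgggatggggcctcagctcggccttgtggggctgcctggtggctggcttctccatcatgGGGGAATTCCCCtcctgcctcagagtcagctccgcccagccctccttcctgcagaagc
Nfkb2: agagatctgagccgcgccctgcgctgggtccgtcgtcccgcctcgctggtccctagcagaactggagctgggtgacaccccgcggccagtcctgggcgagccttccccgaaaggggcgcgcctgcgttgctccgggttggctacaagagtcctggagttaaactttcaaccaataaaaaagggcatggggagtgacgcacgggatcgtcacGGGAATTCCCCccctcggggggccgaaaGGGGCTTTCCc
Nfkbie: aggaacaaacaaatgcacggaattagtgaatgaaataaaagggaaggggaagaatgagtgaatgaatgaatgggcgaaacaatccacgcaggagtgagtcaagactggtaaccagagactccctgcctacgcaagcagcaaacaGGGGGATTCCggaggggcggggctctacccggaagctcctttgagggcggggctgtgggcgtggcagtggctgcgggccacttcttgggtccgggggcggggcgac
Tnip3: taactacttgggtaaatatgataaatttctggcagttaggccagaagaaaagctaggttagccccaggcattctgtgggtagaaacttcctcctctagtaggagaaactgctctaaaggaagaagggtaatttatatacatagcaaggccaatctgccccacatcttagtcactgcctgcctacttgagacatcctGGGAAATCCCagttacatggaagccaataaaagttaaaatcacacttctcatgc

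Dexamethasone alone lowered more members than it raised. In WT macrophages 19 of 43 were lower (28.2% of all genes tested were lower) and 9 higher (21.2% of all genes), with a median of -0.06 beside -0.018 over all genes. Changes were small: 2 members fell and 1 rose by 2-fold or more (6.07% and 3.57% of all genes). The falls took in Rel and I-kappaB genes and the A20-binding proteins Tnip1 and Tnip3, while Tnip2 was among the rises, which also held the brakes Nfkbia and Zc3h12a together with Birc3.

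Tnip3 (ENSMUSG00000044162, chr6:65502297-65611024, plus strand), which encodes the A20-binding protein ABIN-3, had 49.6, 49.1, 43.3 and 46.5 CPM in WT control and 12.4, 10.6, 9.46 and 11.8 CPM in WT dexamethasone libraries. It fell 4.26-fold with a wide gap between the sets (log2 fold change -2.09 ± 0.059 SE, adjusted p = 4.46e-33). Traf1 had 5.80, 6.16, 5.10 and 6.78 CPM with dexamethasone, below all of its control values given above (log2 fold change -1.42 ± 0.08 SE, adjusted p = 5.79e-21). Relb went from 27.1, 25.04, 29.1 and 29.1 to 15.6, 16.9, 14.96 and 14.9 CPM (log2 fold change -0.82 ± 0.071 SE, adjusted p = 4.39e-14). Nfkbiz, with 12.8, 14.9, 15.3 and 14.5 CPM at rest, read 7.81, 7.36, 9.16 and 10.6 CPM (log2 fold change -0.72 ± 0.092 SE, adjusted p = 2.86e-09). In each of these genes all dexamethasone libraries lay below all controls. Other falls were those of Irak2 (-0.65 ± 0.042), Tank (-0.62 ± 0.041), Tnip1 (-0.52 ± 0.037), Nfkb2 (-0.52 ± 0.048), Ikbke (-0.42 ± 0.043) and Nfkbie (-0.39 ± 0.056). Bcl3, at -0.22 ± 0.092 (edgeR adjusted p = 0.0473), was the weakest call, and leaving out any of 5 libraries ended it, with adjusted p values up to 0.22 (-0.15, without WT dexamethasone replicate 2).

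Birc3 (ENSMUSG00000032000, chr9:7848700-7873187, minus strand), which encodes cIAP2, had 49.1, 51.6, 51.7 and 48.8 CPM at rest and 109, 101, 101 and 94.8 CPM with dexamethasone (log2 fold change 1.01 ± 0.043 SE, adjusted p = 1.31e-25). Zc3h12a read 18.8, 15.3, 19.4 and 18.5 CPM at rest and 34.2, 33.02, 35.9 and 33.01 CPM with dexamethasone (log2 fold change 0.92 ± 0.061 SE, adjusted p = 3.25e-18). Nfkbia, the inhibitor, reached 106, 96.8, 115 and 109 CPM (log2 fold change 0.62 ± 0.047 SE, adjusted p = 4.57e-16). All dexamethasone libraries lay above all controls in these genes. Tirap had 23.5, 24.9, 23.4 and 24.7 CPM at rest and 31.8, 30.7, 30.9 and 30.7 CPM with dexamethasone (log2 fold change 0.36 ± 0.062 SE, adjusted p = 2.34e-06). Smaller rises were called for Ikbkg (0.33 ± 0.041), Tbk1 (0.22 ± 0.031), Ikbkb (0.21 ± 0.037), Irak4 (0.21 ± 0.048) and Tnip2 (0.19 ± 0.063), the last of which gave 0.14 (adjusted p = 0.08) without WT control replicate 2. Rela and Rel, at -0.03 ± 0.036 and -0.03 ± 0.046, were not called, nor was Tnfaip3 at 0.09 ± 0.061.

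KO macrophages had similar counts with dexamethasone alone, 21 lower (27.6% of all genes) and 10 higher (20.9% of all genes). Of the 43 members, 19 were called lower and 8 higher in both genotypes, whose libraries are separate. The share of all genes called alike in both genotypes was not counted, so whether this is particular to the members was not tested. Tnip3 changed by -1.93 ± 0.059, Traf1 by -1.59 ± 0.077, Birc3 by 1.02 ± 0.043 and Zc3h12a by 1.07 ± 0.061. The KO minus WT difference of this effect was called for 0 members (0% of all genes) by edgeR and for 0 by DESeq2, and 0 had an unadjusted p under 0.05.

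When dexamethasone was given together with LPS, the WT levels of 30 members were below those with LPS alone (34.5% of all genes were lower) and 7 were above (34.6% of all genes). The median was -0.36, beside 0.007 over all genes. Without scaling beyond library totals the split was 27 lower and 11 higher. Only 3 members passed 2-fold, all lower (12.0% of all genes). Every TRAF, cIAP and LUBAC gene and every Rel gene was lower, whereas 3 of the 4 IRAKs were higher. This comparison and LPS against control use the same LPS libraries, so values are given side by side without a count of their overlap. The summed macrophage markers were 29000 to 30000 CPM with both agents against 14900 to 17200 CPM with LPS. Of the 8, 4 were higher with both (Mertk by 4.09, Lyz2 by 1.53, Cd68 by 0.66, Itgam by 0.12), 2 lower (Fcgr1 at -1.81, Csf1r at -0.20) and 2 not called, and their part in the result was not tested.

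The largest falls were in genes that carry the signal. Ripk2 (ENSMUSG00000041135, chr4:16122733-16163647, minus strand), at 43.2, 41.2, 41.8 and 41.7 CPM with LPS, read 14.96, 16.6, 15.7 and 17.7 CPM with both (log2 fold change -1.37 ± 0.065 SE, adjusted p = 2.18e-24). All 4 lay far below the LPS libraries and a little above the control mean of 13.99 ± 0.643 CPM (SD, n = 4). Traf6 (ENSMUSG00000027164, chr2:101508774-101532014, plus strand) went from 116, 117, 96.5 and 106 to 47.7, 48.7, 44.5 and 44.6 CPM (log2 fold change -1.23 ± 0.053 SE, adjusted p = 5.8e-26). All 4 libraries with both agents lay below all 4 control libraries, whose values were 62.9, 60.8, 56.2 and 55.5 CPM. Ikbkg (ENSMUSG00000004221, chrX:73436896-73497460, plus strand) had 172, 171, 164 and 177 CPM with LPS and 80.4, 80.2, 85.7 and 81.4 CPM with both (log2 fold change -1.06 ± 0.039 SE, adjusted p = 6.85e-29). Of the Ikbkg exon bases, 5.15% overlap G6pdx, whose mean count over all libraries was 7058.0 beside 2090.7 for Ikbkg. Traf2, a ligase adaptor of TNF receptor complexes, had 82.8, 82.2, 86.2 and 79.6 CPM with LPS and 44.1, 38.95, 47.3 and 43.2 CPM with both (log2 fold change -0.93 ± 0.053 SE, adjusted p = 4.04e-21). In none of these did the groups overlap. Traf1 changed by -0.81 ± 0.039, Rela by -0.79 ± 0.036, Traf3 by -0.71 ± 0.046, Malt1 by -0.65 ± 0.034, Rel by -0.61 ± 0.048, Ticam2 by -0.60 ± 0.054 and Tnip2 by -0.58 ± 0.06. Rela, at 128 ± 2.31 CPM, overlapped its controls, at 128 ± 5.94 CPM (SD, n = 4).

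Among the 7 members that were higher with both agents were the brakes Tnfaip3 and Irak3 and the interferon-arm kinase gene Ikbke. Tnfaip3 had 353, 352, 319 and 336 CPM with LPS and 526, 527, 529 and 514 CPM with both (log2 fold change 0.62 ± 0.037 SE, adjusted p = 2.27e-20). Irak3 (ENSMUSG00000020227, chr10:119977553-120038035, minus strand) had 245, 256, 220.5 and 268 CPM with LPS, against 369, 375, 372 and 351 CPM with both (log2 fold change 0.57 ± 0.039 SE, adjusted p = 4.77e-18). Ikbke (ENSMUSG00000042349, chr1:131182080-131207344, minus strand), the gene of IKK epsilon, had 213, 227, 213 and 225 CPM with LPS and 375, 364, 368 and 394 CPM with both (log2 fold change 0.77 ± 0.039 SE, adjusted p = 1.83e-23). The groups were apart in all of them, and the libraries with both agents held the highest levels of these genes among the 4 WT groups. The others were Irak4, Irak1, Ripk1 and Map3k7, whose means with both agents lay between those of the LPS and control groups. Irak4 had 45.7, 45.8, 46.02 and 45.2 CPM with both agents, above 25.1, 26.7, 25.6 and 27.6 CPM with LPS (log2 fold change 0.80 ± 0.054 SE, adjusted p = 1.83e-18), Irak1 changed by 0.35 ± 0.039, Ripk1 by 0.26 ± 0.039 and Map3k7 by 0.18 ± 0.04.

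Other brakes were lower. Nfkbia changed by -0.29 ± 0.041, to 485 ± 9.41 CPM (SD, n = 4), Tnip1 by -0.48 ± 0.033, Cyld by -0.34 ± 0.049 and Bcl3 by -0.47 ± 0.06. Zc3h12a (0.00 ± 0.045), Tnip3 (-0.05 ± 0.042), Nfkbiz (0.09 ± 0.058), Myd88 (0.04 ± 0.044), Chuk (0.06 ± 0.039) and Otulin (0.04 ± 0.053) were not called. Tirap, at -0.17 ± 0.062 (edgeR adjusted p = 0.013), gave -0.13 (adjusted p = 0.084) without WT LPS replicate 2. Calls also turned on single LPS or combined libraries for 2 of the uncalled genes: Otulin gave 0.13 (adjusted p = 0.012) without WT LPS replicate 3, and Nfkbiz 0.14 both without WT LPS replicate 4 (adjusted p = 0.043) and without WT dexamethasone plus LPS replicate 2 (adjusted p = 0.034).

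**Figure D3:**
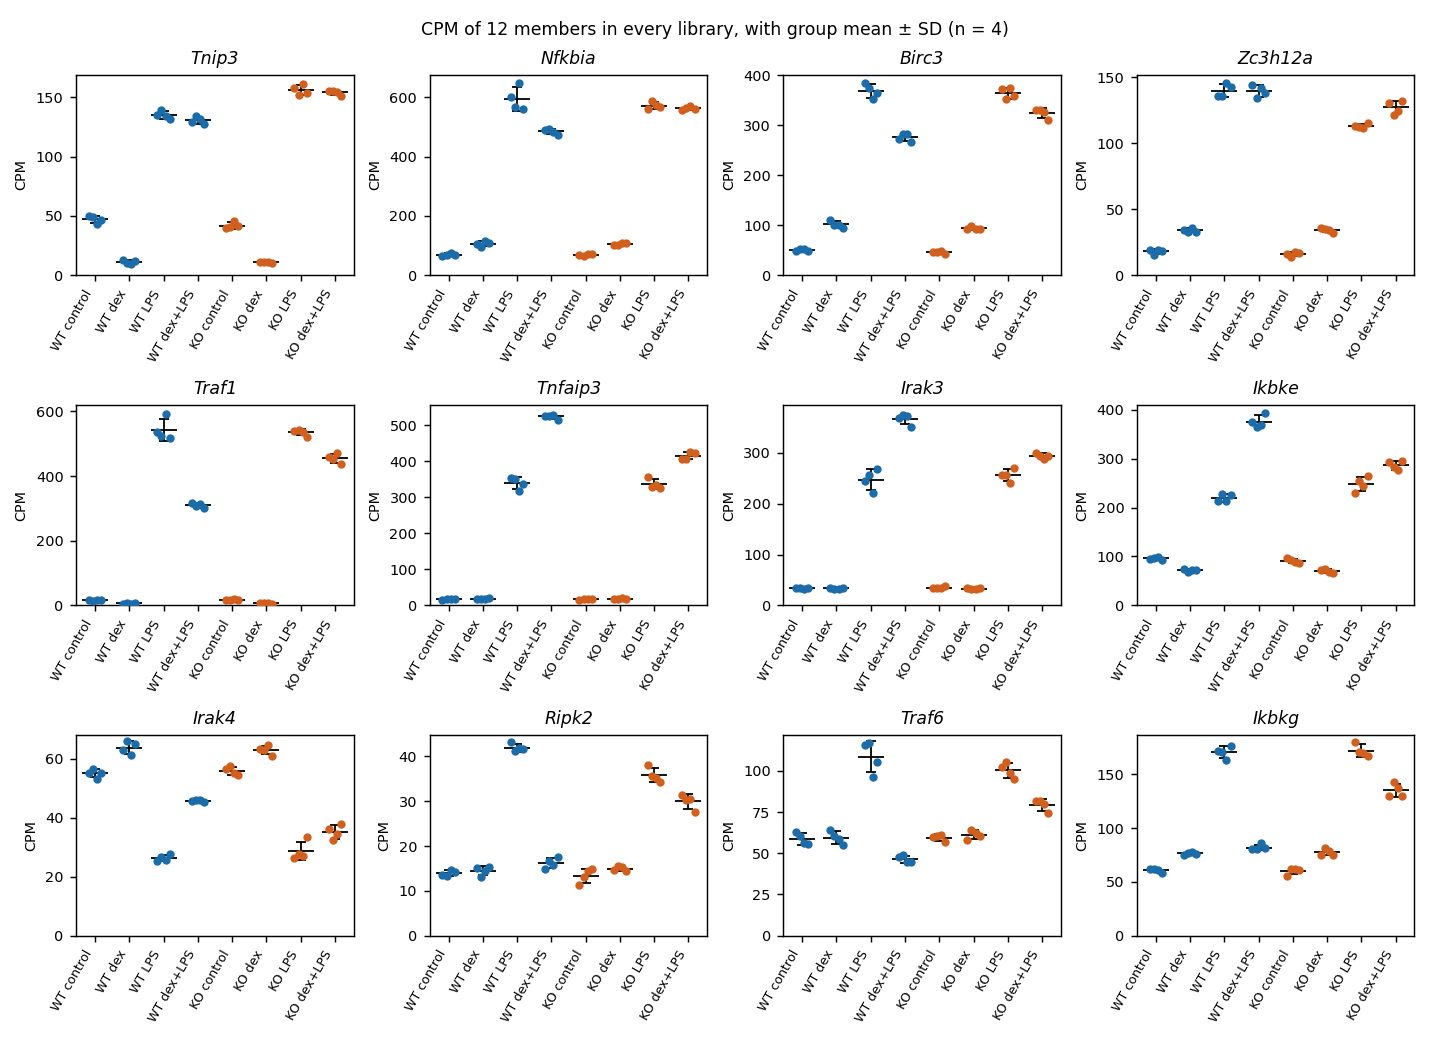
CPM of 12 members in every library (points, 4 per group), with the group mean and SD in black; axes start at 0. WT groups are blue and KO groups orange, each in the order control, dexamethasone, LPS, both. In WT, Tnfaip3, Irak3 and Ikbke are highest with both agents, and Ripk2, Traf6 and Ikbkg have means of 16.2, 46.4 and 81.9 with both agents against 42.0, 109 and 171 with LPS.

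The dexamethasone effect with LPS was tested against that without LPS, in WT. It differed for 38 members, 22 more negative with LPS (28.4% of all genes) and 16 more positive (32%). These 2 effects rest on separate libraries. Birc3 rose with dexamethasone at rest and was lower with it under LPS (1.01 and -0.42), a difference of -1.43 ± 0.057 (adjusted p = 6.27e-27). Nfkbia did the same (0.62 and -0.29, difference -0.92 ± 0.063), as did Ikbkg (0.33 and -1.06, difference -1.39 ± 0.057). Tirap, Ikbkb, Tbk1 and Tnip2 also were called higher in one and lower in the other, with differences of -0.53, -0.42, -0.35 and -0.77. Tnip3 went the other way, with -2.09 at rest and -0.05 under LPS (difference 2.04 ± 0.073, adjusted p = 7.71e-29). Ikbke was lower with dexamethasone at rest and higher with it under LPS (-0.42 and 0.77, difference 1.20 ± 0.058). Traf6 and Ripk2, uncalled at rest (0.01 and 0.05), differed by -1.24 ± 0.075 and -1.42 ± 0.098. In KO macrophages the same interaction was called for 31 members, 17 more positive (25.7% of all genes) and 14 more negative (16.2%), with Birc3 at -1.19 ± 0.057 and Tnip3 at 1.91 ± 0.073.

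Set against dexamethasone alone, LPS still raised 29 WT members in the presence of dexamethasone (35.5% of all genes), and 10 were lower (37.8%). Traf1 rose by 5.69 ± 0.059 and Tnfaip3 by 4.82 ± 0.049. Rela (0.02 ± 0.036), Birc2 (-0.08 ± 0.061), Ikbkb (-0.07 ± 0.037) and Tnip2 (0.07 ± 0.062) were not called, but without scaling Rela, Birc2 and Ikbkb were called lower (-0.17, -0.28 and -0.26). Rel (-0.44 ± 0.048), Traf6 (-0.36 ± 0.055), Ticam2 (-0.18 ± 0.054) and Tirap (-0.17 ± 0.061) stood below the level of dexamethasone alone. Small rises of Ikbkg (0.10 ± 0.04), Cyld (0.14 ± 0.05) and Ripk2 (0.17 ± 0.072) turned to -0.10, -0.06 and -0.03 without scaling. The Ripk2 call also ended without any of 4 libraries (WT dexamethasone replicates 2 and 3, WT dexamethasone plus LPS replicates 2 and 4), with values of 0.12 to 0.16, and that of Ikbkg without any of 3 (WT dexamethasone replicates 1 and 4, WT dexamethasone plus LPS replicate 3), with 0.08 to 0.09. In KO macrophages 34 members were higher (38.5% of all genes) and 6 lower (37.4%), with Traf1 at 6.27 ± 0.059 and Ikbkb, at 0.09 ± 0.036, turning to -0.14 without scaling.

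Without LPS, edgeR called no member different between KO and WT. Without treatment 0 of 43 members were called between KO and WT (0.541% of all genes) by edgeR, 1 by DESeq2 and 8 at an unadjusted p under 0.05. The member that DESeq2 called was Tnip3 (-0.17, adjusted p = 0.038), and edgeR called it without WT control replicate 3 (-0.21, adjusted p = 0.046) or without KO control replicate 3 (-0.22, adjusted p = 0.034). With dexamethasone the count was 0 by edgeR (0.901% of all genes), 0 by DESeq2 and 5 at an unadjusted p under 0.05. Estimates over the 43 members ran from -0.22 to 0.15 in control and from -0.21 to 0.10 with dexamethasone.

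With LPS, 7 members were lower and 3 higher in KO (5.51% and 4.66% of all genes), and 5 and 4 without scaling. Zc3h12a had 136, 136, 146 and 142 CPM in WT and 113, 112, 111 and 116 CPM in KO (log2 fold change -0.31 ± 0.045 SE, adjusted p = 2.22e-06). Nfkb2 had 253, 269, 246 and 255 CPM in KO, below its WT values (log2 fold change -0.21 ± 0.04 SE, adjusted p = 0.00021), and Nfkb1 277, 279, 267 and 275 CPM against 308, 322, 314 and 313 CPM in WT (log2 fold change -0.19 ± 0.032 SE, adjusted p = 1.39e-05). Groups did not overlap for either gene. Ripk2 had 38.1, 35.5, 35.3 and 34.3 CPM in KO, below all WT LPS libraries (log2 fold change -0.23 ± 0.06 SE, adjusted p = 0.00741). Tnip3 had 135, 139, 134 and 132 CPM in WT and 158, 152, 162 and 154 CPM in KO, every KO library above every WT library (log2 fold change 0.21 ± 0.042 SE, adjusted p = 0.000284). Ikbke, with 231, 255, 243 and 264 CPM in KO, was higher by 0.18 ± 0.039 and Tank by 0.11 ± 0.036. Genotype and lane cannot be told apart here: with lane as a term, which then rests on a single KO dexamethasone library in lane 2, 0 of the 10 were called, at values such as -0.18 for Zc3h12a, -0.20 for Nfkb1 and 0.34 for Tnip3. Leaving out 1 library gave 7 to 11 calls: those of Irak2, Malt1 and Tank each ended without at least 3 different libraries (adjusted p values up to 0.073, 0.11 and 0.21), and that of Nfkbib without WT LPS replicate 3 (-0.13, adjusted p = 0.054).

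The size of the LPS effect itself differed between genotypes for 4 members (2 more positive and 2 more negative in KO, 2.07% and 1.64% of all genes). The summed members differed little between genotypes under LPS, with 7178 CPM over all 43 in WT against 7029 CPM in KO. The members with a called difference were Tnip3 (1.90 in KO and 1.52 in WT, difference 0.38 ± 0.064), Ikbke (difference 0.26 ± 0.058), Malt1 (-0.25 ± 0.053) and Nfkb1 (-0.21 ± 0.045). With lane as a term the Tnip3 and Nfkb1 differences were no longer called (0.48 and -0.21, adjusted p = 0.082 and 0.24).

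In KO macrophages with both agents the members stood near their LPS levels. Against KO LPS, 17 were lower (17.3% of all genes) and 5 higher (20.8% of all genes), none by 2-fold (3.92% of all genes), with a median of -0.06 beside -0.002 over all genes; both groups come from lane 2. The summed macrophage markers were 20800 to 21500 CPM with both and 16800 to 18000 CPM with LPS. Of the 8, 3 were higher with both (Mertk by 2.46, Lyz2 by 0.58, Cd68 by 0.36), 3 lower (Fcgr1 at -0.52, Adgre1 at -0.12, Csf1r at -0.08) and 2 not called, and their part was not tested. The largest fall was that of Ikbkg, with 180.5, 171, 169.8 and 167 CPM in KO LPS and 130.3, 143, 138 and 129.8 CPM with both (log2 fold change -0.35 ± 0.038 SE, adjusted p = 7.59e-11). Traf6 had 102, 106, 98.5 and 95.3 CPM with LPS and 81.7, 81.8, 79.6 and 74.2 CPM with both (log2 fold change -0.34 ± 0.051 SE, adjusted p = 2.44e-07). Ripk2 had 31.5, 30.3, 30.5 and 27.6 CPM with both agents (log2 fold change -0.26 ± 0.061 SE, adjusted p = 0.000549). The sets did not overlap in these genes. Tnfaip3 had 356, 328, 333 and 327 CPM with LPS and 407, 406, 425 and 422 CPM with both (log2 fold change 0.30 ± 0.037 SE, adjusted p = 2.68e-09), and Irak4 26.4, 27.6, 27.1 and 33.2 CPM with LPS and 36.2, 32.2, 34.4 and 37.7 CPM with both, where 1 LPS library lay above the lowest library with both (log2 fold change 0.30 ± 0.055 SE, adjusted p = 1.12e-05). Zc3h12a was higher with both agents than with LPS in KO (0.17 ± 0.045), and none of the 5 I-kappaB genes was called (DESeq2 called 30 members in all, edgeR 22).

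The dexamethasone effect under LPS differed between KO and WT for 34 members, 27 more positive in KO (23.9% of all genes) and 7 more negative (21.5%). Of the 37 members called in WT, all 37 had the same sign in KO, 36 were nearer to 0 there, and for 33 the difference itself was called. These members were picked by their WT call, which favours a smaller value in KO, and the matching shares over all genes were not counted. The KO values rest on the libraries with both agents, whose even spacing is described above. These counts are therefore a description and not a test. Over all 14427 genes the dexamethasone effect under LPS was smaller in KO too. The median absolute log2 fold change was 0.46 in WT and 0.19 in KO, with 9978 and 5499 genes called. The 4 without a called difference were Tirap, Tab2, Tbk1 and Tank. Ripk2 had the largest difference, 1.11 ± 0.089 (adjusted p = 4.53e-15), from -1.37 in WT to -0.26 in KO. It was followed by Traf6 (0.89 ± 0.073), Ikbkg (0.71 ± 0.054), Traf2 (0.69 ± 0.074) and Rela (0.59 ± 0.05). In the other direction stood Ikbke (-0.56 ± 0.055), Irak4 (-0.50 ± 0.077), Irak3 (-0.37 ± 0.055) and Tnfaip3 (-0.32 ± 0.053).

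**Figure D4:**
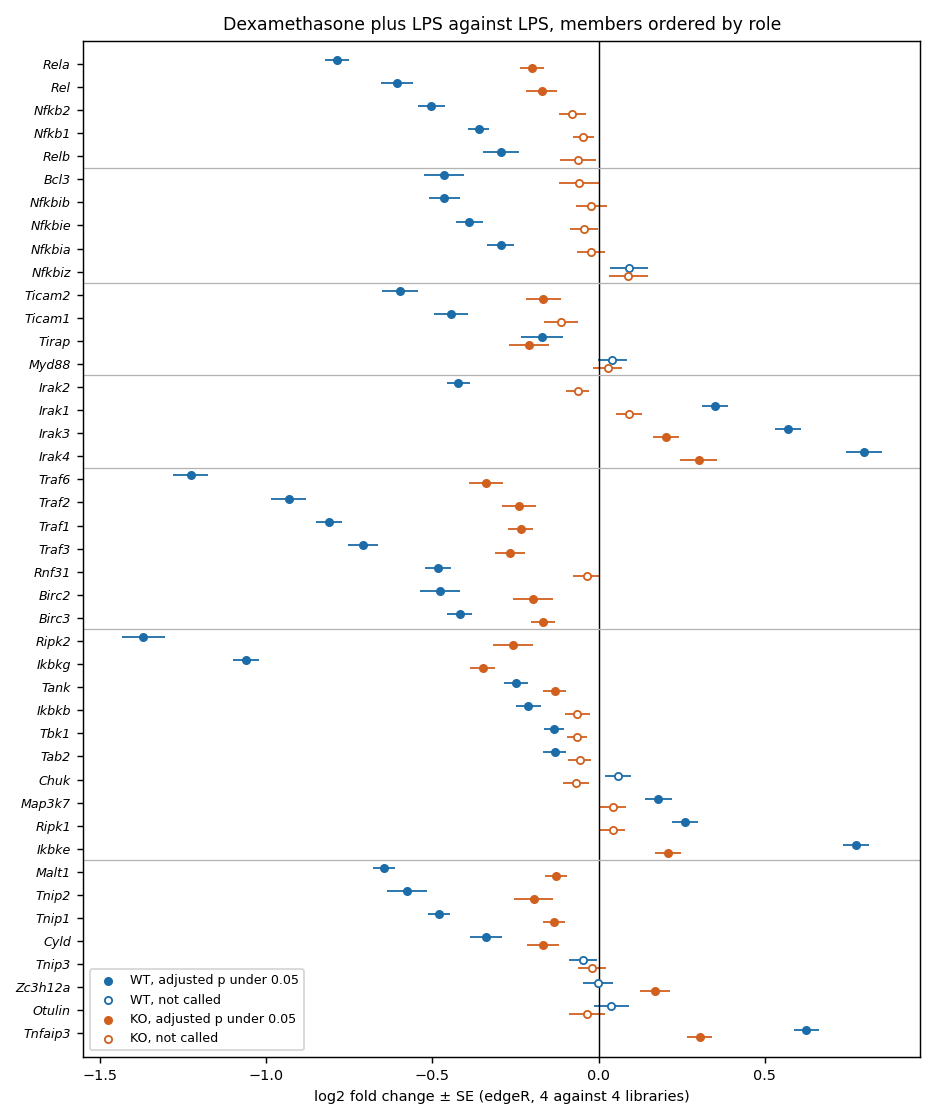
Log2 fold change of dexamethasone plus LPS against LPS for the 43 members (rows, by role), with bars of 1 standard error, in WT (blue) and KO (orange), 4 against 4 libraries; open points were not called. WT values run from -1.37 (Ripk2) to 0.80 (Irak4), and KO values from -0.35 (Ikbkg) to 0.30 (Tnfaip3 and Irak4).

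Compared at the level of both agents, 30 members were higher in KO than in WT (28.5% of all genes) and 9 lower (27.9%). Traf2 had 44.1, 38.95, 47.3 and 43.2 CPM in WT and 74.4, 72.9, 75.1 and 78.2 CPM in KO (log2 fold change 0.79 ± 0.053 SE, adjusted p = 4.96e-18). Ripk2 had 14.96, 16.6, 15.7 and 17.7 CPM in WT and was higher by 0.88 ± 0.066 in KO, Traf6 by 0.77 ± 0.054 and Ikbkg by 0.72 ± 0.039. Irak3 had 300.5, 294, 289 and 294 CPM in KO, below all WT libraries with both agents (log2 fold change -0.32 ± 0.039 SE, adjusted p = 8.88e-10). Ikbke, with 294, 282, 276 and 295 CPM in KO, differed from WT by -0.39 on the log2 scale (adjusted p = 1.8e-12). Genotype and lane cannot be told apart here either, with the KO libraries from lane 2 and the WT libraries from lane 3. With lane as a term, which rests on a single KO dexamethasone library in lane 2, 26 members were called, 21 higher and 5 lower.

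The members shared the even spacing of the KO libraries with both agents. For the 10 members that differed at least 1.5-fold between KO LPS and WT dexamethasone plus LPS, the KO level with both agents lay 29.8% to 43.8% of the way, with a median of 36.9%, which is also the median of the 1666 genes. Ripk2 and Traf2 (both 29.8%), Ikbke (30.5%) and Rela (31%) were at the low end, and Traf3 (43.8%), Tnfaip3 (41.9%) and Ikbkg (41%) at the high end. Members raised and members lowered by dexamethasone in WT both occur at each end. The glucocorticoid-induced gene Fkbp5, given both agents, had 681 ± 12.1 CPM in WT against 262 ± 29.3 CPM in KO libraries, and given dexamethasone alone 878 ± 12.8 against 836 ± 24.6 CPM (SD, n = 4). What part genotype, lane or the make-up of these libraries has in this pattern was not tested.

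**Figure D5:**
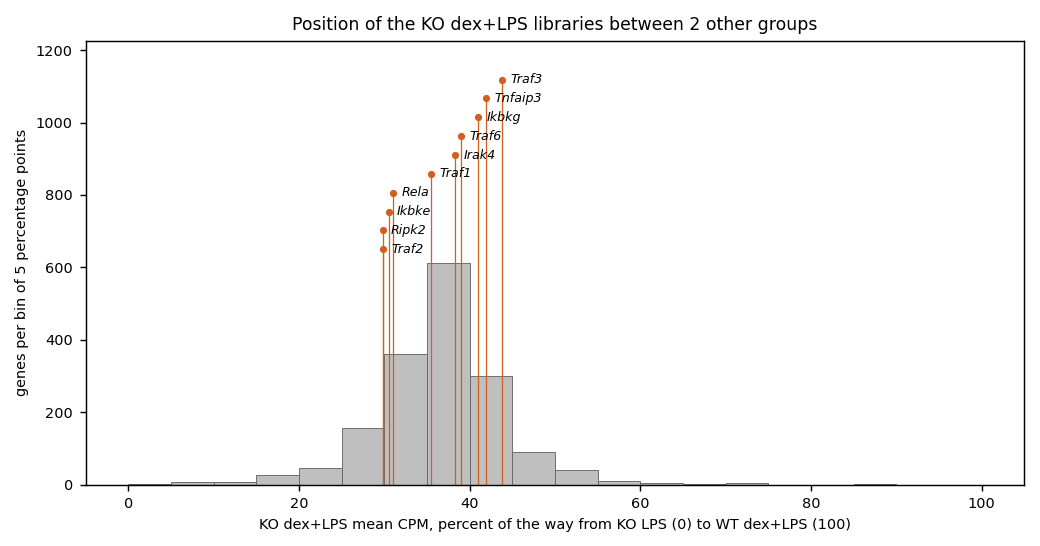
Number of genes (grey bars, bins of 5 percentage points, 1666 genes) by the position of the KO dexamethasone plus LPS mean CPM between the KO LPS mean (0) and the WT dexamethasone plus LPS mean (100). Orange lines mark 10 members, which lie between 29.8 and 43.8, inside the peak of the bars.

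Other genes of the pathway were counted in the same way, in lists also chosen with earlier results of these data known. Of all genes in WT, 37.4% were higher and 38.3% lower with LPS. With both agents against LPS, 34.6% were higher and 34.5% lower. Of the LPS receptor genes tested, Cd14 and Ly96 (MD-2) rose with LPS in WT (1.57 ± 0.035 and 0.90 ± 0.1) and Tlr4 fell (-0.33 ± 0.043), and all 3 were lower with both agents than with LPS (-0.64 ± 0.035, -0.83 ± 0.099 and -0.70 ± 0.045). Of 9 other TLR genes tested, 4 rose and 5 fell with LPS. The smallest adjusted p values were those of Tlr9 (-5.04 ± 0.11), Tlr8 (-2.33 ± 0.057) and Tlr7 (-1.74 ± 0.051), and Tlr5, a weakly expressed gene, went from 2.88 ± 0.621 CPM (SD, n = 4) to 2 counts over the 4 LPS libraries. Of the same 9 genes, 6 were higher and 3 lower with both agents than with LPS. Tlr2, the receptor of bacterial lipoproteins, was higher with both by 1.55 ± 0.048. Among 40 further signalling genes 22 rose and 11 fell with LPS (median 0.18), and 16 were higher and 13 lower with both agents than with LPS (median 0.02), where the 43 members had 7 higher and 30 lower. Within that list N4bp1 (a suppressor of NF-kappaB) and Nod1 (a receptor of the RIPK2 pathway) rose with LPS by 2.75 ± 0.044 and 2.35 ± 0.059.

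The 12 cytokine and enzyme genes taken as NF-kappaB targets all rose with LPS in WT, where 37.4% of all genes were higher. With both agents 11 of 12 were lower than with LPS and 1 was higher, with a median of -3.73 in WT and -0.62 in KO. In WT 34.5% of all genes were lower in that comparison and 34.6% higher. The 12 were chosen with earlier results of these data known, so their counts are a description and not a test. Il1b changed by -7.65 ± 0.076 in WT and -0.70 ± 0.055 in KO, Nos2 by -6.00 ± 0.067 and -0.67 ± 0.052. For comparison, the lowest value of a member in WT was -1.37. Nr3c1, the glucocorticoid receptor, had 148 ± 3.94 CPM in untreated WT macrophages, 110.3 ± 1.78 CPM after dexamethasone, 131 ± 15.2 CPM after LPS and 209 ± 2.41 CPM after both, and 163 ± 1.43 CPM after both in KO (SD, n = 4).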

How the data were processed

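The data were 32 mRNA libraries of mouse macrophages, grouped by the sample labels. What the authors deposited were unscaled counts per gene, obtained, per the file headers, with featureCounts 2.0.0 on exons, paired and without strand, on GENCODE vM32, with 1 other column of exon length in bases, used for CPM per kb. GRCm38, mm10 and STAR appear in the submitters' processing notes, with no STAR version, although GENCODE vM32 was made for a newer mouse build; gene positions are those of the deposited table and promoters are RefSeq GRCm38.p6. Of 56953 genes, 4924 identifiers had no symbol (0.846% of counts). Totals were 17559079 to 25049200, and the median CV of a member within a group was 3.56%.

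Counts were analysed in R 4.3.3. The filterByExpr rule of edgeR 4.0.16 kept 14427 genes, TMM scaled the libraries, and 8 group means were fitted together (24 residual degrees of freedom, biological coefficient of variation 4.36%). Each of 17 contrasts was tested with the two-sided quasi-likelihood F test with calls made where the p value adjusted over all genes tested (Benjamini-Hochberg) was below 0.05; SE was derived from F. The fit was tested on simulated data. Members and gene lists were chosen with earlier results of these data known. Values by library are given for up to 4 members that rose and 4 that fell most in each WT comparison and in the genotype comparisons under LPS, and for the member of each role with the largest change; other genes are the LPS receptor, up to 3 per list, and Acod1 and Nr3c1. Fkbp5 and single genes outside the rule were named after their values were seen. Promoters were searched on both strands.

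Replicate pairs within groups differed by more than counting noise (chi-square per degree of freedom 2.02 to 17.4, 48 pairs). Of 43 members, 14 overlap exons of other genes, 4 of them (Nfkb2, Nfkbib, Ticam2, Myd88) over more than 10% of exon bases. Header paths place 22 libraries in lane 3 and 9 in lane 2, and 1 was merged. Alternatives were RLE factors, no scaling, no filter, DESeq2 1.42.0, a threshold of 0.01, the compared groups alone, a replicate block, a lane term, lane 3 alone, and leaving out each library. The position measure of KO dexamethasone plus LPS libraries was added after the data had been seen. Figures were drawn with matplotlib 3.10.9.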

Additional observations from a re-analysis of the deposited data

Results flagged for a closer look

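In 14 of 344 sets of 4 libraries (43 members in 8 groups), 1 library stood apart from the other 3 by Dixon's criterion, and chance gives this in about 1 set in 20. Low libraries were WT dexamethasone replicate 2 for Rela (117.3 CPM, others 127.9 to 129.2) and replicate 4 for Tank (47.96 CPM), WT LPS replicate 3 for Ripk1 (76.63 CPM, others 87.73 to 89.82) and Map3k7 (64.51 CPM), KO control replicate 4 for Tbk1 (128.7 CPM), KO dexamethasone replicate 2 for Tnip1 (81.89 CPM), KO LPS replicate 4 for Tab2 (142.2 CPM) and KO dexamethasone plus LPS replicate 2 for Ticam2 (39.63 CPM). High libraries were WT LPS replicate 4 for Ticam2 (51.38 CPM), WT dexamethasone replicate 2 for Tab2 (155.6 CPM), KO control replicate 4 for Irak3 (37.27 CPM), KO dexamethasone replicate 2 for Birc3 (98.51 CPM), KO dexamethasone plus LPS replicate 3 for Rela (194.8 CPM) and replicate 2 for Cyld (94.87 CPM, others 83.07 to 84.45).

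The LPS effect differed between KO and WT, by the test of the difference itself, for Nfkb1 (-0.21, KO minus WT, log2), Ikbke (0.26), Tnip3 (0.38) and Malt1 (-0.25).

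The dexamethasone effect under LPS differed in the same way for 34 members. Among Rel and I-kappaB genes the KO minus WT difference was 0.31 for Nfkb1, 0.42 for Nfkb2, 0.43 for Rel, 0.59 for Rela, 0.23 for Relb, 0.27 for Nfkbia, 0.44 for Nfkbib, 0.35 for Nfkbie and 0.41 for Bcl3. Among adaptors and IRAKs it was 0.33 for Ticam1, 0.43 for Ticam2, -0.26 for Irak1, 0.36 for Irak2, -0.37 for Irak3 and -0.50 for Irak4. Among TRAF, cIAP and LUBAC genes it was 0.58 for Traf1, 0.69 for Traf2, 0.44 for Traf3, 0.89 for Traf6, 0.28 for Birc2, 0.25 for Birc3 and 0.45 for Rnf31. Kinases and scaffolds gave -0.22 for Ripk1, 1.11 for Ripk2, -0.14 for Map3k7, 0.15 for Ikbkb, 0.71 for Ikbkg and -0.56 for Ikbke, and feedback genes -0.32 for Tnfaip3, 0.34 for Tnip1, 0.38 for Tnip2, 0.17 for Cyld, 0.17 for Zc3h12a and 0.52 for Malt1. These values rest on the KO libraries with both agents, whose even spacing is described above.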

How the results depend on the processing

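Counts of called members stayed within 1.5 times the reported count under every alternative run, except these. KO against WT with LPS (10) gave 6 with only the compared groups in the fit and 0 with a lane term, and 7 to 11 when 1 library was left out. The KO minus WT difference of the LPS effect (4) gave 2 with the lane term and 4 to 5 without 1 library. KO against WT in control (0) gave 1 with DESeq2, and 0 to 1 without 1 library. Lane 3 alone could not be run for comparisons with KO LPS libraries. No scaling beyond library totals moved the median of all genes to -0.278 for LPS in WT, -0.272 in KO and 0.104 for dexamethasone plus LPS against LPS in WT, and turned 7 of the member values: LPS in WT for Rel (-0.13) and Myd88 (-0.03), LPS in KO for Rel (-0.12), and both agents against dexamethasone for Ripk2 (-0.03), Ikbkg (-0.10) and Cyld (-0.06) in WT and Ikbkb (-0.14) in KO. Any pairing of libraries by replicate number was weak. Same-number correlations of deviations ran from -0.0287 to 0.0596, 0 of 112 over 0.1. Their median was 0.00764, against -0.00247 for pairs with other numbers. Still, 18 of 32 libraries correlated best with their own number, more than an even spread over the 4 numbers would give. With a replicate block the counts were 43 for LPS in WT and in KO, 27 and 31 for dexamethasone, 37 and 22 for both agents against LPS, 39 and 40 against dexamethasone, 0, 0, 11 and 39 for KO against WT, 4, 0 and 34 for the genotype differences and 37 and 31 for the interactions. Expression near the filter was not limiting, since the lowest count of a member was 102.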
